A study of Mus musculus with 6 samples.

Results

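The genes described here are 44 listed members of the Polycomb, trithorax and nucleosome remodelling machinery, followed in satellite cells with and without Hira. They were taken by gene symbol for the complex they belong to, and all 44 were found among the 55536 genes counted. They comprise 7 genes of Polycomb repressive complex PRC2, 8 of PRC1, 2 H3K27 demethylases, 6 H3K4 methyltransferases, 3 cofactors of the latter (the COMPASS group), 3 H3K4 demethylases, 7 subunits of the BAF remodellers, 3 CHD remodellers and 5 genes of histone chaperones. All 44 passed the filter on low counts and were among the 22404 genes tested.

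RNA-seq data were from satellite cells, the PAX7-expressing stem cells of skeletal muscle, in 3 samples of control genotype Pax7CreErt2;Hira fl/+ and in 3 of genotype Pax7CreErt2;Hira fl/fl, called cKO. HIRA is a chaperone that places the histone variant H3.3 into chromatin outside DNA replication, and DAXX is another chaperone of H3.3. The mice were adult males of 8 to 12 weeks, labelled C57BL/6J, and both genotypes carried the tamoxifen-inducible Cre, received tamoxifen in the diet for 2 weeks and regular food for 1 week, and had the Tibialis anterior injured with BaCl2. Cells positive for ITGA7 and CD34 and negative for CD45, TER119 and SCA1 were sorted 5 days post-injury, and were grown for 48 h at low density in high serum medium with basic FGF. The labels name the controls wild type, whereas the methods give them a floxed Hira allele, so both groups carry a floxed allele and differ in the number of them. Cre is driven by Pax7, and cells that never express Pax7 keep Hira in either genotype. The samples are described as independent RNA samples, without a statement that each came from a separate mouse, so the p-values measure the spread between these samples, which may be technical.

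Polycomb and trithorax proteins hold genes in silent or active states through marks on histone tails. PRC2 methylates lysine 27 of histone H3 and PRC1 ubiquitinates histone H2A, both linked to silencing, while trithorax methyltransferases mark promoters and enhancers at lysine 4 of H3 and the BAF and CHD enzymes shift nucleosomes with ATP. In muscle stem cells these proteins are known for keeping genes of other lineages silent and for opening muscle genes during activation and differentiation.

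The counts per sample totalled from 47944477 in cKO replicate 1 to 63323577 in control replicate 2. Over all genes, 2101 were higher and 1448 lower in cKO (edgeR, adjusted p under 0.05), so that 59.2% of the calls were rises, against 70.0% when libraries were scaled by their total counts alone. Hira itself had 375, 348 and 341 counts in the controls and 161, 293 and 272 in cKO replicates 1 to 3, a log2 fold change of −0.43 (SE 0.12, adjusted p = 0.0237). Since 44.7% of the exonic bases of Hira are also annotated to Gm28539 in the same orientation, this check is uncertain. In satellite cells of the same mouse model, the paper reports a sharp fall of Hira mRNA by RT-qPCR and no HIRA protein by immunostaining. Satellite cell and myoblast markers dominated every sample, and their summed level was 9576 to 9685 scaled CPM in the controls and 8291 to 8909 in cKO, where 9 of 12 were lower and only Cd34 was higher. Scaled CPM are CPM computed on the library size after TMM scaling. Markers of other cells were also present: the 19 macrophage markers summed to 162 to 169 scaled CPM in controls and 335 to 387 in cKO (17 of 19 higher), the 12 fibroblast markers to 1135 to 1211 and 1540 to 1698 (7 higher, with Lum and Tcf21 near 0 and not tested), and the 10 endothelial markers to 18.3 to 20.8 and 28.3 to 33.5 (5 higher). The largest fibroblast terms, Col1a2 and Col3a1 at 591 and 397 scaled CPM in controls, rose by 19.8% and 15.5%. Col1a1 rose by 145%, and Fbln1 was not called (log2 fold change −0.11). The paper proposes that satellite cells without Hira themselves express more genes of other lineages, among them Cdh5 and Pdgfra. For these 2 genes it also reports higher mRNA by RT-qPCR, and for VE-Cadherin, the product of Cdh5, positive immunostaining of such cells. The 16 proliferation genes summed to 2034 to 2051 in controls and 1781 to 1892 in cKO, with 8 of 16 lower. No marker was at 0 in all samples, and Ptprc, which encodes CD45, and Ly6a, which encodes SCA1, were counted in every sample although cells with either protein were gated out. Each of these sums had no overlap between the groups, and their part in the differences described here was not tested. In RNA from bulk cells, fewer cells of a type and less RNA per cell cannot be told apart.

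Among the 44 listed genes, 5 were downregulated in cKO and 0 were upregulated. The 5 were Kmt2c and Kmt2d, which encode the H3K4 methyltransferases MLL3 and MLL4 of enhancers, and Arid1a, Arid1b and Arid2, which encode the large ARID subunits that define the kinds of BAF complex. The log2 fold changes ran from −0.13 in Arid2, which fell by 8.39%, to −0.26 in Kmt2d, which fell by 16.6%. No listed gene of PRC2, PRC1, the demethylases, the COMPASS cofactors, the CHD remodellers or the chaperones passed the test in either direction. The 5 are 11.4% of the list, and 6.46% of all tested genes were called lower and 9.38% higher. In genes with a mean of at least 10 CPM and a protein-coding transcript, a level that all listed genes but Phf19, Cbx7, Cbx8 and Setd1b reached, 12.3% of 8852 were called lower and 11.5% higher, so the share of the list called lower was close to that of genes of like level. The median log2 fold change of the list was −0.05, against −0.001 over all tested genes, with 30 genes below 0 and 14 above. At an unadjusted p under 0.05, 13 of the 44 were lower and 0 higher, while 12.7% of all tested genes were lower and 14.9% higher, and 21.1% and 17.0% of the genes of at least 10 CPM.

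Without control replicate 1 or without cKO replicate 3, 3 of the 44 genes were called, namely Kmt2c, Kmt2d and Arid1b, and without a filter on low counts 8 were called. In 17 of the 44 genes (38.6%) the groups did not overlap and all cKO samples were lower, and in Phf19 and Smarca2 all cKO samples were higher. Such a separation was found downwards in 15.0% and upwards in 16.8% of all tested genes, and downwards in 23.8% of the genes of at least 10 CPM. The lowest of the 6 samples was cKO replicate 1 in 22 of the 44 genes, cKO replicate 3 in 7, cKO replicate 2 in 2 and a control in 13. The same library, cKO replicate 1, had the lowest depth and the lowest Hira count.

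**Figure D1:**
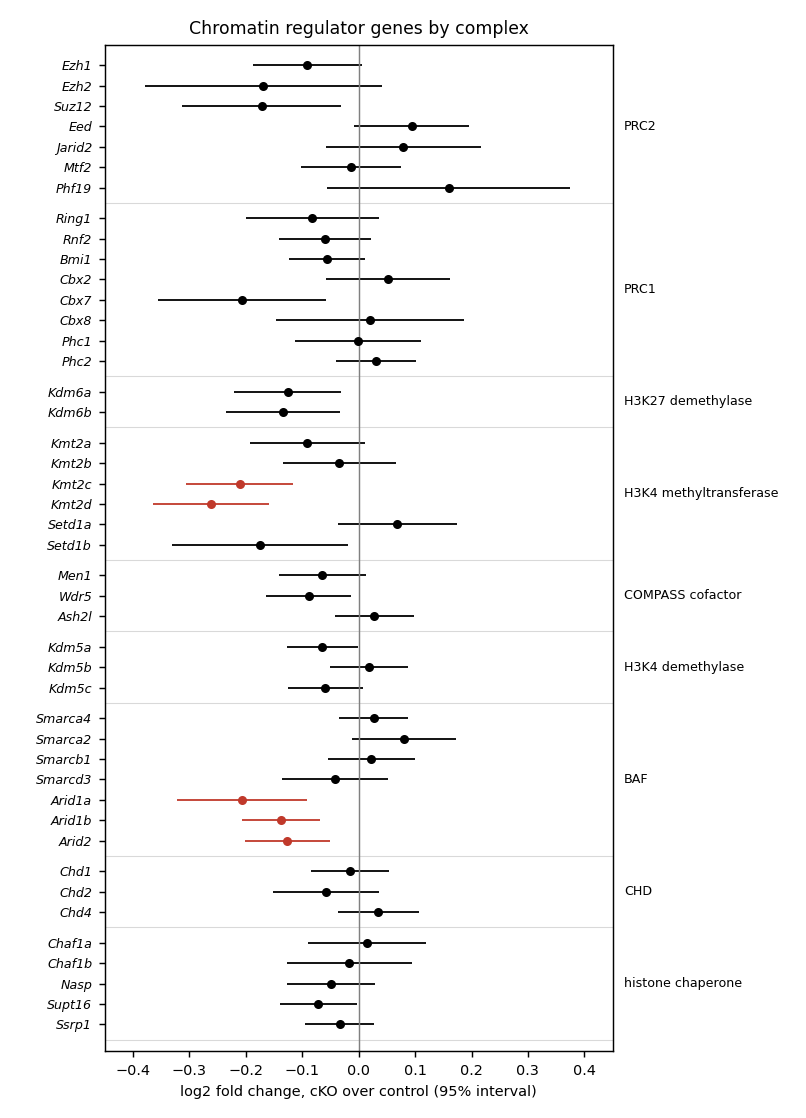
Log2 fold change of cKO over control for the 44 listed genes, grouped by complex, with bars for the 95% interval of each gene before adjustment for multiple tests. Red points are the 5 genes with an adjusted p under 0.05, Kmt2c, Kmt2d, Arid1a, Arid1b and Arid2, all left of 0, and black points are the 39 genes that were not called.

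The H3K4 methyltransferases were compared first, since their 6 genes serve different sites. Kmt2c and Kmt2d encode the enzymes that monomethylate lysine 4 at enhancers, Kmt2a and Kmt2b encode MLL1 and its closest relative at promoters of developmental genes, and Setd1a and Setd1b encode the enzymes of bulk trimethylation at active promoters. Kmt2d (chr15:98831669-98871204 of mm10, minus strand) had 105, 99.4 and 104 scaled CPM in control replicates 1 to 3 and 78.2, 92.1 and 86.5 in cKO replicates 1 to 3. All cKO samples were below all controls, with cKO replicate 1 the lowest. The log2 fold change was −0.26 (SE 0.05, adjusted p = 0.0014, edgeR), the largest fall of the list. Kmt2c (chr5:25271798-25498783, minus strand) had 72.0, 68.2 and 69.4 scaled CPM in the controls and 56.0, 64.1 and 60.7 in cKO. The groups again did not overlap and cKO replicate 1 was again the lowest. The log2 fold change of Kmt2c was −0.21 (SE 0.04, adjusted p = 0.0040). Both genes were called in every alternative run at an adjusted p under 0.05, and the leave-one-out values ranged from −0.32 to −0.20 for Kmt2d and from −0.26 to −0.16 for Kmt2c.

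Promoter windows are shown for Kmt2c and Kmt2d here and for Arid1a below, because these genes moved in the same direction. RefSeq windows of 250 bases before to 50 after the RefSeq start on GRCm38.p6 were found for 35 of the 44 genes and for 11232 tested protein-coding genes. That start can differ from the GENCODE gene start used for the coordinates. The windows of Arid1b and Ezh2, for example, lay wholly inside the GENCODE gene. Each is written 5′ to 3′ on the strand of the gene, and capitals mark GGGCGG, the GC box bound by SP and KLF factors, on either strand, overlapping matches included. Kmt2c is shown from chr5:25498734-25499033 and Kmt2d from chr15:98871156-98871455, both on the minus strand.
Kmt2c: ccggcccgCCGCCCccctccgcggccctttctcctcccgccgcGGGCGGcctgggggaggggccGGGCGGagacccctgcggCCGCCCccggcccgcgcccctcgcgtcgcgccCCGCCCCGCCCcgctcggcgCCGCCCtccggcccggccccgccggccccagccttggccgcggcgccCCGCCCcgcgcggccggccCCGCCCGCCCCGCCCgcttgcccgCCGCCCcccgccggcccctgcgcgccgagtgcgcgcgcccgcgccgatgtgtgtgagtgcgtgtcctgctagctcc
Kmt2d: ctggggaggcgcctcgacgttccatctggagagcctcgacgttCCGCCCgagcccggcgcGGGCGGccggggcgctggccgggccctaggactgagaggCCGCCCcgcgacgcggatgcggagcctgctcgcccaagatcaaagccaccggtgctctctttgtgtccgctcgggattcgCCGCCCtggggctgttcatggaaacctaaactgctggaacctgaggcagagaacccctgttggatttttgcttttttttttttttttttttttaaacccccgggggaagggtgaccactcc
The Kmt2c window held 12 matches to GGGCGG and 56 CpG dinucleotides at 88.0% GC, and that of Kmt2d held 4 matches and 27 CpG at 62.7% GC. Of the other genes that fell, Arid1b had a window that is not shown, with 1 match and 42 CpG at 75.3% GC. No window was found for Arid2. GGGCGG was found in 27 of the 35 windows of listed genes (77.1%) and in 62.3% of all windows. The median window of a listed gene had 27 CpG and 64.3% GC, against 20 CpG and 60.7% GC over all windows.

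The promoter-type H3K4 methyltransferases did not pass the test. Kmt2a had 58.3, 52.6 and 56.4 scaled CPM in the controls and 49.1, 55.4 and 52.4 in cKO. The groups overlapped, and the log2 fold change was −0.09 (95% interval −0.19 to 0.01, adjusted p = 0.24). Kmt2b had 49.3, 48.2 and 48.6 in the controls and 44.8, 51.5 and 46.2 in cKO, with overlap and a log2 fold change of −0.03 (95% interval −0.13 to 0.07, adjusted p = 0.71). A fall of either gene as large as that fitted for Kmt2c or Kmt2d lies outside these intervals. Whether the fall of Kmt2c or Kmt2d differed from that of Kmt2a or Kmt2b was not tested. Setd1a differed by 0.07 (adjusted p = 0.42) and is uncertain, since Gm49388 is annotated over 51.8% of its exonic bases in the same orientation. Setd1b, the lowest of the 6 genes per transcript length, had 9.56, 8.70 and 8.48 scaled CPM in the controls and 7.26, 8.42 and 7.91 in cKO. Its groups did not overlap, but its log2 fold change of −0.18 missed the threshold (SE 0.07, adjusted p = 0.13). Over the 6 genes the median log2 fold change was −0.13, with 5 of 6 below 0 and 2 of 6 called lower (33.3%). The share called lower was 6.46% of all tested genes and 12.3% of the genes of at least 10 CPM. It was 26.5% where these also had transcripts of at least 8000 bases, as Kmt2c and Kmt2d had.

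The COMPASS cofactors showed small differences. Men1, which encodes menin and tethers MLL1 to its targets, differed by −0.06 on the log2 scale (adjusted p = 0.28). Wdr5, a core subunit shared by all of these methyltransferases, had 56.3, 57.5 and 55.1 scaled CPM in the controls and 51.9, 53.1 and 53.9 in cKO. The groups of Wdr5 did not overlap, and its log2 fold change of −0.09 was not called (adjusted p = 0.11). Ash2l, another core subunit, differed by 0.03 with overlapping groups (adjusted p = 0.66).

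**Figure D2:**
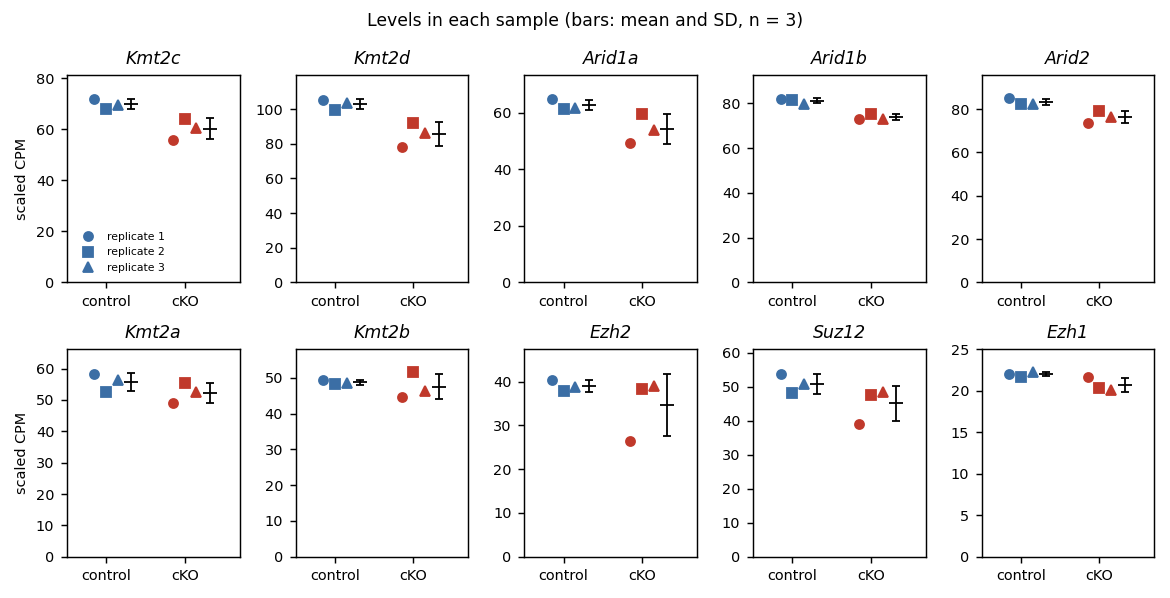
Scaled CPM in each sample for the 5 genes that fell (upper row) and for Kmt2a, Kmt2b, Ezh2, Suz12 and Ezh1 (lower row), with axes starting at 0, symbols for replicate numbers and bars for the mean and SD of 3 samples. In the upper row no cKO sample reaches a control sample, and in the lower row cKO replicate 1 of Ezh2 stands at 26.4 while the other samples lie between 37.9 and 40.5.

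Among the 7 listed BAF genes, the 3 ARID subunits fell, and the 2 ATPases, Smarcb1 and Smarcd3 did not pass the test. Whether the ARID genes differed from the others was not tested. Arid1a and Arid1b are alternative subunits of canonical BAF, and Arid2 belongs to the PBAF form. Arid1a (chr4:133679008-133756769, minus strand) had 64.9, 61.5 and 61.8 scaled CPM in the controls and 49.3, 59.6 and 53.9 in cKO. No samples of the groups overlapped, although cKO replicate 2 came close to the controls. The log2 fold change was −0.21 (SE 0.05, adjusted p = 0.0152). Arid1b (chr17:4994332-5347656, plus strand) had 82.1, 81.7 and 79.9 in the controls and 73.0, 75.4 and 73.1 in cKO, a tight separation with a log2 fold change of −0.14 (SE 0.03, adjusted p = 0.0082). Arid2 (chr15:96287518-96404992, plus strand) had 85.1, 82.5 and 82.5 in the controls and 73.4, 79.0 and 76.5 in cKO. For Arid2 the log2 fold change of −0.13 (SE 0.04, adjusted p = 0.0227) was the smallest of the 5 called genes. Arid1b was called in every alternative run at an adjusted p under 0.05. Arid1a lost its call when control replicate 1 (adjusted p = 0.064) or cKO replicate 3 (0.062) was left out, and Arid2 lost it without control replicate 1 (0.10), 2 (0.063) or 3 (0.060) or cKO replicate 3 (0.063), nor with scaling by total counts (0.073).

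The window of Arid1a (chr4:133756720-133757019, minus strand, the first of 2 listed for the gene) is shown as that of the BAF gene with the largest fall, with the same capitals.
Arid1a: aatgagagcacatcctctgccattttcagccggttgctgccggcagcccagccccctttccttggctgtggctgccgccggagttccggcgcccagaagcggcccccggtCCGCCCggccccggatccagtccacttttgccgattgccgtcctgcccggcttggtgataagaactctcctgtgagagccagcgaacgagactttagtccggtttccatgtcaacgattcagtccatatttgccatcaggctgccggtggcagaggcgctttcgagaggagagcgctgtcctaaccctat
It held 1 match to GGGCGG and 22 CpG at 61.3% GC, fewer than the Kmt2c window.

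Among the remaining BAF genes, Smarca4, which encodes the ATPase BRG1, had 337, 338 and 346 scaled CPM in the controls and 345, 350 and 345 in cKO. These values overlapped, and the log2 fold change was 0.03 (95% interval −0.03 to 0.09, adjusted p = 0.62). Smarca2, which encodes the alternative ATPase BRM, had 22.3, 22.9 and 23.2 in the controls and 23.5, 24.9 and 23.9 in cKO, and was not called although every cKO sample was higher (log2 fold change 0.08, adjusted p = 0.26). Smarcb1, a core subunit, differed by 0.02 (adjusted p = 0.76). Smarcd3 encodes BAF60C, the subunit that recruits the remodeller with MYOD to muscle genes, and its log2 fold change was −0.04 (adjusted p = 0.60), but 48.2% of its exonic bases overlap Chpf2 on the other strand and the strand setting of the counting is not given in the sources used here. Across the 7 genes the median was −0.043, with 3 called lower (42.9%) and 0 higher. Over all tested genes, 6.46% were called lower and 9.38% higher. In genes of at least 10 CPM, 12.3% were called lower. With transcripts of at least 8000 bases, as the 3 ARID genes had, 26.5% of them were called lower.

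PRC2 was examined by its catalytic, core and accessory subunits, and none of its 7 genes was called. Ezh2, the methyltransferase of cycling cells, had 40.5, 37.9 and 38.8 scaled CPM in the controls and 26.4, 38.3 and 39.0 in cKO. The value of cKO replicate 1 stood far below, and the other cKO samples lay within the range of the controls. The log2 fold change was −0.17 (95% interval −0.38 to 0.04, adjusted p = 0.30), and without cKO replicate 1 it was −0.01. Its alternative Ezh1, the form prominent in resting and differentiated cells, had 22.0, 21.7 and 22.2 in the controls and 21.7, 20.3 and 20.1 in cKO. All cKO samples were below the controls, by a margin that was not called (log2 fold change −0.09, adjusted p = 0.22). The window of Ezh2 (chr6:47594981-47595280, minus strand) is shown because the lowest interval bound of the list was that of this gene, with capitals for CCAAT, the NF-Y box, and TTTGGCG, an E2F motif, on either strand.
Ezh2: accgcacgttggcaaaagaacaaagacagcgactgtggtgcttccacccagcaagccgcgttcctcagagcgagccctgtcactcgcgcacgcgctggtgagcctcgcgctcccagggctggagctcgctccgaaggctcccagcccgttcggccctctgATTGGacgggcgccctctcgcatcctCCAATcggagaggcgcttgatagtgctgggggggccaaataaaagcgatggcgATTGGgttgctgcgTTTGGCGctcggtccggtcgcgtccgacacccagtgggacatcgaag
It held 3 matches to CCAAT, 1 to TTTGGCG and 0 to GGGCGG, with 31 CpG. Of the 35 windows of listed genes, 12 held CCAAT (34.3%, against 38.4% of all windows) and 2 held TTTGGCG (5.71%, against 2.51%), Ezh2 and Chaf1a. CCGGAAG, an ETS motif, was in 3 of 35 (8.57%), against 16.8% of all windows.

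Suz12, a core subunit required for the enzyme, had 53.8, 48.0 and 50.8 scaled CPM in the controls and 39.0, 47.6 and 48.5 in cKO. The groups overlapped at control replicate 2, and cKO replicate 1 was again far below the others. Its log2 fold change was −0.17 (SE 0.07, adjusted p = 0.099), and it was called without cKO replicate 2 (adjusted p = 0.047) and without a filter on low counts. Without that filter Ezh2 and Kdm6a were called as well. Eed, the subunit that reads the methyl mark, differed in the other direction by 0.09 (95% interval −0.01 to 0.20, adjusted p = 0.22). The accessory subunits Jarid2, Mtf2 and Phf19 guide PRC2 to CpG-rich sites. Jarid2 differed by 0.08 and Mtf2 by −0.01, with overlapping groups and adjusted p of 0.48 and 0.88. Phf19 was the lowest gene of the list, with 2.66, 2.64 and 2.76 scaled CPM in the controls and 2.97, 2.80 and 3.25 in cKO. For Phf19 the log2 fold change of 0.16 was the highest of the list and the groups did not overlap, yet it was not called (SE 0.10, adjusted p = 0.35). The median of the 7 genes was −0.013.

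PRC1 gave no calls among its 8 genes. Ring1 and Rnf2, the ubiquitin ligases of the complex, had log2 fold changes of −0.08 and −0.06 (adjusted p = 0.38 and 0.35). Bmi1, a partner of these ligases known for stem cell maintenance, had 84.3, 85.5 and 87.0 scaled CPM in the controls and 83.8, 82.1 and 81.2 in cKO. The groups of Bmi1 were apart by less than 1 scaled CPM, and its log2 fold change was −0.06 (adjusted p = 0.28). The chromodomain subunits Cbx2, Cbx7 and Cbx8 are alternatives for binding methylated lysine 27. Cbx7 had 7.24, 7.76 and 7.88 scaled CPM in the controls and 6.89, 6.71 and 6.25 in cKO. Every cKO sample was lower, with a log2 fold change of −0.21 that lay just above the threshold (SE 0.07, adjusted p = 0.058). Cbx7 was called without cKO replicate 1 (adjusted p = 0.043). Cbx2 and Cbx8 differed by 0.05 and 0.02 (adjusted p = 0.58 and 0.91). Phc1 and Phc2, the polyhomeotic subunits that link complexes together, differed by 0.00 and 0.03 (adjusted p = 0.995 and 0.63). The median of PRC1 was −0.029.

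The enzymes that remove these marks were not called either. Kdm6a encodes UTX, an X-linked H3K27 demethylase needed for muscle gene activation, and had 42.8, 38.9 and 39.6 scaled CPM in the controls and 35.7, 37.1 and 38.2 in cKO. Kdm6b encodes the related JMJD3 and had 21.02, 20.2 and 20.7 in the controls and 17.9, 19.0 and 19.4 in cKO. In both genes all cKO samples were under all controls, and cKO replicate 1 was the lowest. Their log2 fold changes were −0.13 and −0.13, with adjusted p of 0.068 and 0.069. Of the H3K4 demethylases, Kdm5a differed by −0.06 without overlap between the groups (adjusted p = 0.18), Kdm5b by 0.02 (0.78) and the X-linked Kdm5c by −0.06, again without overlap (0.24). The medians were −0.13 for the 2 H3K27 demethylases and −0.059 for the 3 H3K4 demethylases.

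No listed CHD remodeller or chaperone gene was called, and the log2 fold changes of these listed genes lay between −0.07 and 0.03. Chd4, the ATPase of the NuRD complex, had 628, 621 and 632 scaled CPM in the controls and 612, 665 and 650 in cKO, a difference of 0.03 on the log2 scale (95% interval −0.04 to 0.11, adjusted p = 0.58). Chd1, which binds trimethylated lysine 4, differed by −0.02 (adjusted p = 0.83), and Chd2 by −0.06 (0.45), where 18.4% of the exonic bases overlap 1810026B05Rik. Chaf1a and Chaf1b encode subunits of CAF-1, the chaperone that deposits H3 and H4 during replication, and differed by 0.02 and −0.02 (adjusted p = 0.89 and 0.89). Exons of Chaf1a overlap Ubxn6 on the other strand over 52.5% of their bases. Nasp, which holds a soluble pool of H3 and H4, differed by −0.05 (adjusted p = 0.44). Supt16 and Ssrp1, the subunits of the FACT complex that loosens nucleosomes for polymerases, differed by −0.07 (adjusted p = 0.16) and −0.03 (0.51), each with all cKO samples below all controls. Exons of Supt16 partly overlap those of Rpgrip1, so that its counts are less certain. For 34 of the 39 genes that were not called, the 95% interval lay within 0.25 of 0 on the log2 scale, the exceptions being Ezh2, Suz12, Phf19, Cbx7 and Setd1b.

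Levels per transcript length, as scaled CPM per kb of the longest protein-coding transcript, ranked the members within each complex. All exons of a gene together can be longer: 6678 against 2787 bases in Ezh2 and 4945 against 4373 in Suz12. The order within a complex therefore depends on the length chosen, which the SD does not cover. Ssrp1 (94.5 ± 0.474, SD, n = 3, in controls) and Chd4 (93.6 ± 0.877) stood highest and lay within the spread of each other. Smarca4 followed at 53.4 ± 0.809 and Supt16 at 48.1 ± 1.34. With the transcript length, Ezh2 led in PRC2 at 14.0 ± 0.478, followed by Mtf2 at 12.6 ± 0.365, Eed at 11.7 ± 0.365 and Suz12 at 11.6 ± 0.668. By this measure Eed and Suz12 did not differ beyond their spread, while Ezh1 (5.23 ± 0.0606), Jarid2 (3.41 ± 0.197) and Phf19 (0.719 ± 0.0172) were clearly lower. In PRC1 the order was Phc2 (28.7 ± 0.721), Bmi1 (23.8 ± 0.379) and Rnf2 (17.9 ± 0.630), with Cbx8 (1.604 ± 0.0994) last. The H3K4 methyltransferases were low throughout, from Kmt2b at 5.75 ± 0.0683 and Kmt2d at 5.18 ± 0.149 to Setd1b at 1.01 ± 0.0646. In cKO, Kmt2d stood at 4.32 ± 0.354 and Kmt2c at 4.03 ± 0.271, and Kmt2b stayed highest of the 6 at 5.61 ± 0.418. Among the BAF subunits, Arid2 (9.80 ± 0.179), Arid1a (7.66 ± 0.230) and Arid1b (7.17 ± 0.106) each lay below Smarcb1 at 37.4 ± 0.657 by this measure. This gap depends on the length chosen, since all exons of Smarcb1 hold 7930 bases and its longest protein-coding transcript 1660.

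**Figure D3:**
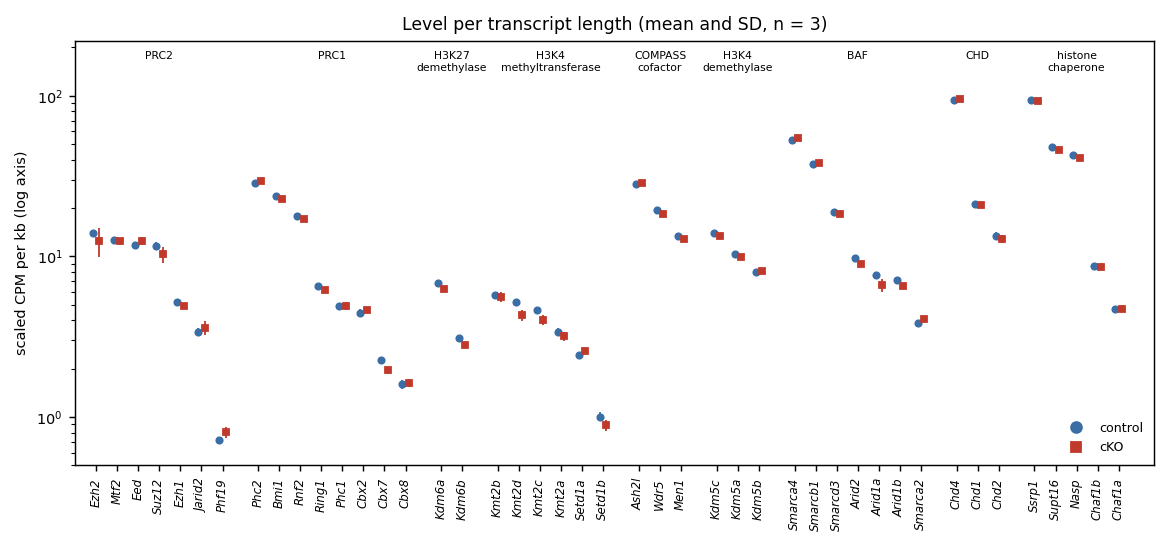
Scaled CPM per kb of the longest protein-coding transcript on a log axis for the 44 listed genes, sorted by control level within each complex, as mean and SD of 3 control (blue circles) and 3 cKO (red squares) samples. The levels run from 0.719 for Phf19 to 94.5 for Ssrp1 in controls, and the distance between the groups is small beside this range.

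Paralogs were compared as ratios within each sample, which do not depend on library scaling. The log2 ratio of Ezh1 to Ezh2 per kb was −1.47, −1.40 and −1.40 in the controls and −0.88, −1.51 and −1.55 in cKO. The cKO samples fell on both sides of the controls, and the mean difference of 0.11 rested on cKO replicate 1. Smarca2 to Smarca4 was −3.81, −3.78 and −3.79 in the controls and −3.77, −3.71 and −3.75 in cKO, so that BRM mRNA was far below BRG1 mRNA in all samples and the groups differed by 0.052 without overlap. Cbx7 to Cbx2 was −1.04, −0.91 and −1.02 in the controls and −1.21, −1.17 and −1.36 in cKO, a mean difference of −0.26 without overlap. This was the largest shift of the 6 pairs. Arid1b to Arid1a (−0.095 in controls and −0.020 in cKO), Kmt2a to Kmt2b (−0.76 and −0.82) and Kdm6b to Kdm6a (−1.13 and −1.14) gave means with overlapping samples. These ratios are described without a test.

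**Figure D4:**
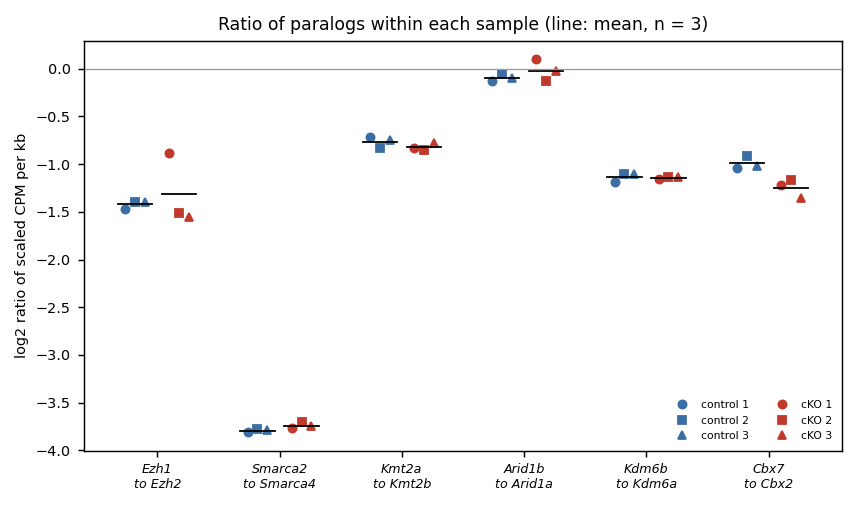
Log2 ratio of scaled CPM per kb between 6 pairs of paralogs in each sample, with blue symbols for control, red symbols for cKO, and a line at the mean of 3 samples. Cbx7 to Cbx2 and Smarca2 to Smarca4 do not overlap between the groups, and cKO replicate 1 of Ezh1 to Ezh2 stands alone at −0.88.

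The 5 called genes shared a feature that the list did not use, the length of their transcripts. All 5 had a protein-coding transcript of at least 8000 bases, from 8187 in Arid1a to 19823 in Kmt2d, a bound chosen after these values were seen. Of the 11 listed genes at or over that length, 5 were called lower and the median log2 fold change was −0.13. The 6 others were Kmt2a, Kmt2b, Kdm5a, Kdm5b, Setd1b and Chd2. Of the 33 shorter genes, 0 were called and the median was −0.016. The same direction was present over all genes of at least 10 CPM. There, 26.5% of 599 genes with transcripts of at least 8000 bases were called lower, against 11.3% of 8253 shorter genes, and 32.8% of the 259 genes of 10 kb or more. Long transcripts deviated per library: relative to the mean of all samples their median log2 value was 0.048, 0.023 and 0.018 in control replicates 1 to 3. In cKO replicates 1 to 3 it was −0.056, 0.0004 and −0.028. The groups did not overlap, so this deviation cannot be told apart from genotype. The part of transcript length in the calls was examined only through a correction of each library for GC content and length, chosen after the data were seen. Such a correction also removes a length difference that goes with genotype. With it, the log2 fold changes were −0.22 for Kmt2d (adjusted p = 0.0013), −0.20 for Arid1a (0.0079), −0.15 for Kmt2c (0.0083) and −0.11 for Arid1b (0.022), all still called. Arid2 was no longer called at −0.09 (adjusted p = 0.053), and Cbx7 was called at −0.22 (0.038).

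**Figure D5:**
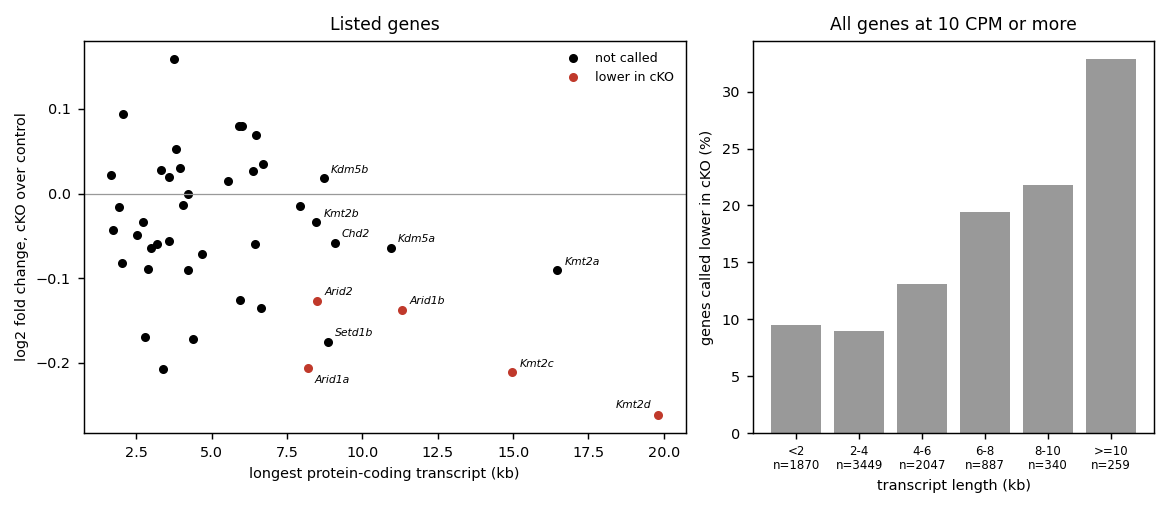
Left, log2 fold change of cKO over control for the 44 listed genes against the length in kb of the longest protein-coding transcript, with the 5 called genes in red and the genes of 8 kb or more named. Right, percentage of all genes of at least 10 CPM called lower in cKO by transcript length, with the number of genes under each bar. The share called lower is 9.52% under 2 kb, 9.02% from 2 to 4 kb and 32.8% at 10 kb or more.

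The other genes of the same complexes were taken from a list of 99 made by complex membership, of which 97 were tested. Of these, 15 were called lower (15.5%) and 2 higher (2.06%), beside 6.46% and 9.38% of all genes and 12.3% and 11.5% of the genes of at least 10 CPM, so that the share called lower was near that of genes of like level. They included no gene of PRC2 (5 tested), PRC1 (16), the H3K4 demethylases (3) or the ISWI and INO80 remodellers (10). Ncoa6, a subunit of the complexes built on Kmt2c and Kmt2d, had 26.2, 25.3 and 25.2 scaled CPM in the controls and 20.7, 21.9 and 21.8 in cKO. Its groups lay well apart, with a log2 fold change of −0.25 (adjusted p = 0.00083), close to the value of Kmt2d. Not every subunit of these complexes fell. Paxip1, named after its value was seen, differed by 0.02 with overlapping groups (adjusted p = 0.85). The listed Kdm6a was not called, and Pagr1a was not tested. Ep300, the acetyltransferase that marks lysine 27 of H3 at enhancers, fell from 58.5, 55.3 and 54.7 to 47.3, 49.3 and 48.4 (log2 fold change −0.22, adjusted p = 0.00094). Bicra, a subunit of the smaller GBAF form of the remodeller, fell from 8.40, 7.92 and 7.53 to 5.71, 6.16 and 6.47, the largest fall called among these genes (log2 fold change −0.38, adjusted p = 0.0022). Both genes kept their groups apart in every sample. Of the other BAF genes tested, 4 were called lower, 0 were called higher and 16 were not called. Besides Bicra, those called lower were Smarcc1 and Smarce1, which encode core subunits, and Pbrm1, a subunit of PBAF. Their log2 fold changes were −0.18 (adjusted p = 0.0024), −0.15 (0.0039) and −0.12 (0.023). Those not called included Smarcc2 at −0.007 (adjusted p = 0.94), Brd7 at 0.01 (0.87) and Phf10 at −0.09 (0.081). All of these genes but Bicra are named after their values were seen.

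Of the 15 other CHD and NuRD genes, 3 were called lower and 2 higher. Chd3 and Mta1 were the 2 that were higher. Chd3, the ATPase that alternates with Chd4, rose from 147, 143 and 144 scaled CPM to 178, 187 and 180 (log2 fold change 0.33, adjusted p = 2.7e-06), while Chd4 itself was not called. Mta1, a NuRD subunit named here after its value was seen, rose by 0.17 on the log2 scale (adjusted p = 0.0040). Chd7, another CHD remodeller, and Gatad2b, a NuRD subunit, both also named after their values were seen, fell by 0.26 (adjusted p = 1.7e-05) and 0.24 (0.0012) on the log2 scale. Mbd3, a structural subunit of NuRD, had 46.1, 37.3 and 36.8 in the controls and 26.2, 34.6 and 36.0 in cKO. The groups did not overlap, with the widest values in control replicate 1 and cKO replicate 1 (log2 fold change −0.31, adjusted p = 0.046). Mbd3 lost its call when control replicate 1 was left out (adjusted p = 0.20), and likewise without control replicate 2 (0.053), control replicate 3 (0.055) or cKO replicate 1 (0.083) and with DESeq2 (0.28), and the leave-one-out adjusted p ran from 0.028 to 0.20. Anp32e, a chaperone of the variant H2A.Z, fell from 180, 182 and 181 to 154, 150 and 158 (log2 fold change −0.24, adjusted p = 5.6e-05). Taking the listed and the other genes of the complexes with transcripts of at least 8000 bases, 9 of 27 were called lower and 0 higher, beside 26.5% lower and 9.85% higher of the 599 genes of that length and of at least 10 CPM.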

How the data were processed

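RNA was measured in 3 control and 3 cKO samples, grouped by the genotype in the labels. Libraries were made from 400 ng of total RNA after removal of ribosomal RNA with a stranded kit and sequenced as single-end reads of 75 bp. Alignment by the authors used Bowtie2 2.3.4.2, an aligner that leaves out reads over exon junctions, on mm10, and they deposited raw counts per gene from featureCounts 1.6.3. The strand setting and the treatment of reads shared by genes are not given in the sources used here. Their normalized values and their own comparison (fold changes, p-values) were not used.

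Symbols, coordinates, overlaps and transcript lengths came from GENCODE M21. Genes were filtered with filterByExpr, scaled by TMM and tested with the quasi-likelihood test of edgeR 4.0.16 (R 4.3.3) with genotype as the only term, Benjamini-Hochberg adjustment over 22404 genes and a threshold of 0.05. Intervals are 95% intervals of the fit, unadjusted. The script was tested on simulated data. Replicates varied by a common coefficient of 3.92%, and no 2 replicates held the same library.

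The members and the gene lists were chosen with earlier results of these data known. Named genes are all members and, in each group of other genes of the complexes, the called gene with the largest rise and the largest fall and at least 10 counts in the higher group. Alternatives were DESeq2 1.42.0, RLE size factors, total counts, no filter, a replicate block, an adjusted p under 0.01, leaving out each sample and, chosen after the data were seen, a GC and length correction. Promoter sequences are from RefSeq. Python 3.11.15 was used for summaries.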

Additional observations from a re-analysis of the deposited data

How the results depend on the processing

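The 5 calls were the same with DESeq2, with RLE size factors and with the replicate block, which used the replicate numbers although same-numbered samples did not deviate together (correlations of −0.013, −0.0045 and −0.015) and gave 1901 higher and 1251 lower genes in all. Of the other named genes, Mbd3 was not called with this block (adjusted p = 0.086) or with scaling by total counts (0.071). Without a filter on low counts 8 listed genes were called lower, and at an adjusted p under 0.01 there were 3, with 732 lower over all genes. With 1 sample left out, 3 to 6 listed genes and 917 to 1673 of all genes were called lower. Scaling by total counts gave 4 higher genes among the other genes of the complexes and medians of −0.028 for all listed genes, −0.0040 for PRC1, −0.040 for the COMPASS cofactors, −0.035 for the H3K4 demethylases and −0.018 for BAF. The GC and length correction gave medians of −0.035 for all listed genes, −0.086 for the COMPASS cofactors, −0.015 for the H3K4 demethylases and 0.020 for CHD. With 1 sample left out, the median ran from −0.063 to −0.022 for all listed genes, from −0.055 to 0.00074 for PRC2, from −0.051 to −0.024 for PRC1, from −0.082 to −0.055 for the COMPASS cofactors and from −0.083 to −0.019 for BAF. The cause of these changes was not tested. For 20 of the 39 listed genes that were not called, the 95% interval held a fall as large as that of Arid2, the smallest called, so that such a fall lay within their error.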
